A study of Mus musculus with 12 samples.

Results

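Genes of the B lineage were followed through early T cell precursors by DNase-seq, which maps open chromatin as DNase I hypersensitive sites (DHSs). The 8 genes were Pax5, Ebf1, Pou2af1, Cd79a, Cd79b, Vpreb1, Igll1 and Blnk, out of 21755 protein-coding genes on the autosomes and chromosome X. They were chosen by name as B lineage genes, and every peak within 50 kb either side of their gene bodies was taken. The windows held 148 of the 170207 consensus DHSs of the series, a consensus DHS being a region formed by merging the overlapping peaks of all libraries. Of the 148, 7 lay at the promoter of one of the 8 genes (midpoint within 1 kb of the gene start), 25 at the promoter of a neighbouring gene and 116 were distal, over 1 kb from every protein-coding gene start.

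The 12 libraries came from marrow cells of C57BL/6J mice. LSK cells (Lin-SCA1+KIT+, 3 libraries) are stem and progenitor cells that were profiled fresh. The DN1 (KIT++CD44+CD25-), DN2a (KIT++CD44+CD25+) and DN2b (KIT+CD44loCD25+) precursors, 2 libraries each, were sorted from LSK cells cultured on immobilized Delta1, a Notch ligand fused to an immunoglobulin tail. The IgG group (3 libraries) was LSK cells cultured on human IgG without Notch ligand. All cultures held the cytokines SCF, FLT3L, IL-6 and IL-11. IL-7 was added for DN2a and DN2b but not for DN1, so stage and IL-7 cannot be told apart between DN1 and DN2. The study describes IL-7 and the sorting of stages for the Delta1 cultures only. Between the precursors and IgG, ligand therefore cannot be told apart from sorting or, for DN2a and DN2b, from IL-7. Between the precursors and fresh LSK cells, ligand and culture cannot be told apart. The precursor populations were taken from the LSK isolates, and the labels do not say which libraries share an isolate. Each test treated libraries as independent. Below, the 6 DN1, DN2a and DN2b libraries are called the Delta1 libraries, and the 4 DN2a and DN2b libraries the DN2 libraries. Library values are given in the order LSK, DN1, DN2a, DN2b, IgG.

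B cells arise in the marrow from lymphoid progenitors, and Notch signaling turns such progenitors to the T lineage instead. EBF1 and PAX5 are the transcription factors that specify and then commit the B lineage, and POU2AF1 (OCA-B) is a coactivator that works with octamer-binding POU factors at immunoglobulin promoters. CD79A and CD79B are the signaling chains of the B cell receptor and of the earlier pre-B cell receptor. VPREB1 and IGLL1 form the surrogate light chain of the pre-B cell receptor, and BLNK is the adaptor that couples either receptor to downstream kinases and phospholipases.

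The peak lists held 32952 to 37511 peaks in IgG, 53869 to 62377 in LSK and 57729 to 111582 in the Delta1 libraries, a 3.39-fold range. The deposited lists carry no read totals, so depth is unknown and its part in list length was not tested. Results are therefore also given at equal list lengths, where only the 32952 peaks with the highest deposited score were kept in each library. Equal lengths remove the difference in list length whatever its source, and are not a correction for depth. Marker promoters were read as a check of the labels. Of 12 T lineage genes, LSK libraries had 1 to 3 with an open promoter, DN1 4, DN2a 7, DN2b 9 to 10 and IgG 0, although Ptcra and Notch3 were open in no library. Of 12 myeloid genes, 7 to 8 were open in IgG against 1 to 4 elsewhere, with Fcgr3 open in no library. Of 12 stem and progenitor genes, 5 to 6 were open in LSK, 4 to 7 in the Delta1 libraries and 3 to 4 in IgG, and Ly6a (the gene of SCA1), Hoxa9, Mecom and Lmo2 were open in no library. Part of the myeloid and T lineage marker genes thus moved with the same groups that are compared here, and their part in the results for B lineage genes was not tested.

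Promoters of the 8 genes ranged from no peak in any library to a peak in every library, and a promoter with a peak is called open below. The level used was the within-library percentile of the score of the highest promoter peak, from 0 where the library had no peak there up to 100 for the highest-scoring peaks of the list. Of the 8 promoters, 3 were open in each LSK library, 2 to 3 in DN1, 3 in DN2a, 3 to 4 in DN2b and 1 to 3 in IgG. Pax5, Cd79a and Cd79b had no promoter peak in any of the 12 libraries, as held for 8149 of all 21755 genes, so these 3 of 8 match the share over all genes. Only Vpreb1 was open in all 12, through a promoter that it shares with another gene.

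**Figure D1:**
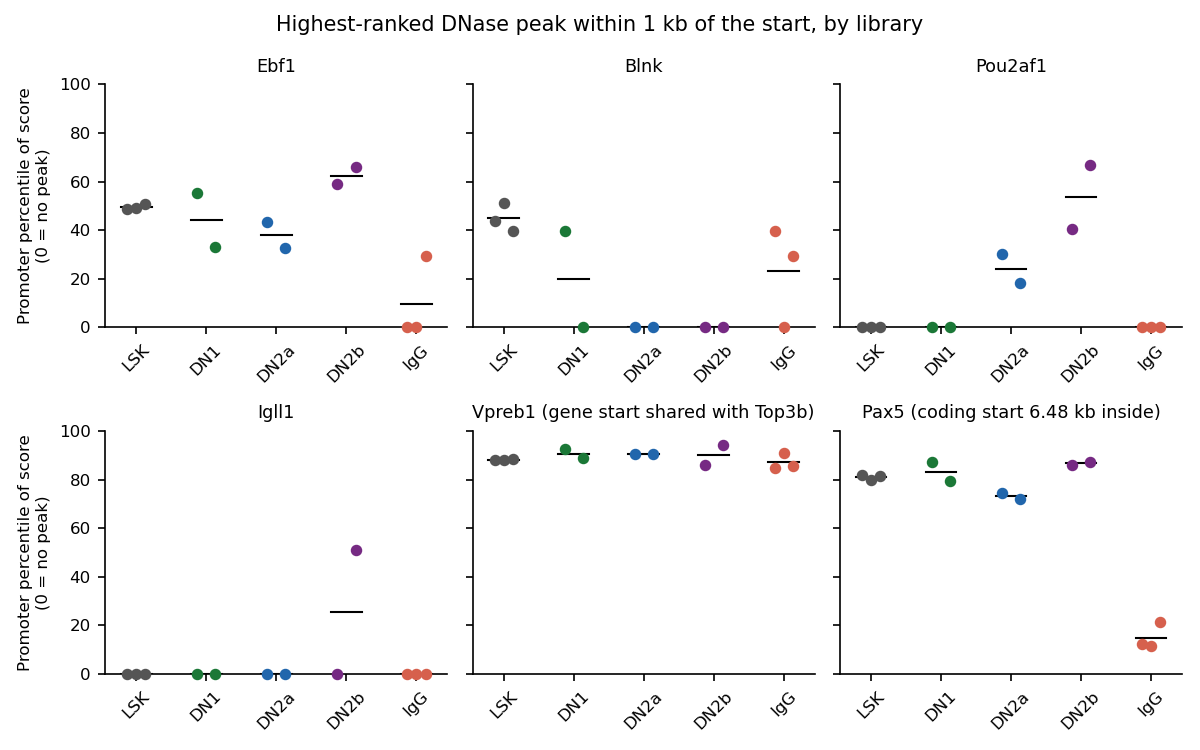
Within-library percentile of the highest peak within 1 kb of the start of Ebf1, Blnk, Pou2af1, Igll1 and Vpreb1. For Pax5 the coding start 6.48 kb inside the gene is drawn in place of the gene start. There is 1 point per library in its group, at 0 where there was no peak. Pou2af1 is above 0 in the 4 DN2 libraries alone (18.2 to 66.8), and Blnk is above 0 in all LSK libraries and in no DN2 library. Ebf1 is above 0 in all libraries but 2 of IgG. The Pax5 coding start is above 0 in all 12 libraries and lowest in IgG (11.4 to 21.2). Cd79a and Cd79b, which had no promoter peak, are not drawn.

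The Pou2af1 promoter was open only at the DN2 stages. Its percentile was 0 in the 3 LSK, 2 DN1 and 3 IgG libraries, 30.3 and 18.2 in DN2a, and 40.5 and 66.8 in DN2b. The DN2 libraries did not overlap with any other group, and both DN2b values lay above both DN2a values. The mean was 24.2 ± 8.53 in DN2a and 53.6 ± 18.6 in DN2b (SD, n = 2 each). Group accounted for a share of variance (eta squared) of 0.921, with an adjusted p of 0.0308 by exact permutation over all 138600 ways to sort the 12 libraries into the groups and Benjamini-Hochberg adjustment over 13606 genes. At that threshold (adjusted p of 0.05) 20.2% of all tested promoters passed, and 1 of the 5 B lineage promoters with a peak did. Leaving out any of the 9 libraries other than LSK raised the adjusted p above the threshold (up to 0.0891), in fits where 0% to 6.81% of all promoters passed. None of the 4 peaks remained at equal list lengths, where 8.41% of promoters passed and none of the 3 B lineage promoters that could still be tested did.

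Pou2af1 (ENSMUSG00000032053.8) lies on chr9:51213708-51240080 of mm10, on the plus strand. Its promoter DHS had its midpoint 6 bp before the gene start, between genes. The 250 bases upstream of its RefSeq start (chr9:51213440-51213689, plus strand of GRCm38.p6, the assembly behind mm10) are shown because they run into this DN2-only site, which spans chr9:51213577-51213826, and the rest of the site is not shown. None of the 8 motif strings searched here, which are listed with the other sequence features below, was found in them, so no base is in capitals.
Pou2af1 promoter: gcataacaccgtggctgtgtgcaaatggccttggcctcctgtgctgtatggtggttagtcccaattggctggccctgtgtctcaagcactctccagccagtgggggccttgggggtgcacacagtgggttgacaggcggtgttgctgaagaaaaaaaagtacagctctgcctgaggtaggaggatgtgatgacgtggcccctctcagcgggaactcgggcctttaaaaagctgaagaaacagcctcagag

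The Pou2af1 window held 19 DHSs, of which 15 were distal, and these were more numerous in the Delta1 libraries. The number of distal DHSs with a peak was 2, 2 and 2 in LSK, 6 and 8 in DN1, 5 and 9 in DN2a, 9 and 10 in DN2b, and 0, 2 and 1 in IgG. Each Delta1 library lay above each LSK and IgG library. Means were 2 ± 0 in LSK (SD, n = 3), 7 ± 1.41 in DN1, 7 ± 2.83 in DN2a, 9.5 ± 0.707 in DN2b (n = 2 each) and 1 ± 1 in IgG (n = 3). Eta squared was 0.912 with an adjusted p of 0.0383 by exact permutation, in a test that 8.75% of 20176 genes passed. With a library left out the call held only without DN2b replicate 1, and the adjusted p ran from 0.0268 to 0.13. Without that library 38.9% of all genes passed, and 0% to 12.2% did without another. At equal list lengths the numbers were 0, 0 and 0 in LSK, 2 and 4 in DN1, 5 and 4 in DN2a, 4 and 3 in DN2b, and 0, 2 and 1 in IgG (eta squared 0.872, adjusted p 0.0459, exact permutation). There 19.6% of 17800 genes passed, and DN1 replicate 1 equalled the highest IgG library.

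Against LSK alone, the Delta1 libraries had 5.83 more distal Pou2af1 DHSs on average. The p-value was 0.0119, the smallest that the 84 divisions of 6 against 3 libraries allow in a two-sided exact permutation test, and the adjusted p was 0.426. No gene of 20176 passed the adjusted threshold in that comparison (0%), and 1842 genes had an unadjusted p below 0.05. Non-overlap with higher values in all 6 Delta1 libraries occurred in 8.22% of all genes, and Pou2af1 was the only 1 of the 8 B lineage genes with it. With lists of equal length the difference was 3.67, with non-overlap in 5.03% of all genes.

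The strongest Pou2af1 site was a DHS at 25.3 kb from the gene start, in the last exon and untranslated in the longer transcript. It was absent from LSK and IgG, and its percentile was 79.2 and 67.2 in DN1, 91.2 and 92.7 in DN2a, and 88.4 and 94.6 in DN2b. It remained in all 6 Delta1 libraries and no other at equal list lengths, with percentiles of 39 and 30.8 in DN1, 81.7 and 87.2 in DN2a, and 78.4 and 81.8 in DN2b. On both scales each DN2 value lay above both DN1 values. Here and below, no share of all DHSs with percentiles so separated between groups is given for single sites. Whether such a separation is particular to a site was therefore not tested. A DHS 36.2 kb upstream of the gene, between genes, had the same distribution, with 45.4 and 63.2 in DN1, 74.5 and 59.5 in DN2a, 68.9 and 80.6 in DN2b and no peak in LSK or IgG. DN1 and DN2 values overlapped there, and 5 of the 6 peaks remained at equal list lengths. A DHS at -38.5 kb, also between genes, was at 47.2 in DN1 replicate 1, 76.2 and 54.4 in DN2a, and 55.9 and 66.8 in DN2b, with no peak in the other libraries, and 3 of these 5 peaks remained with equal lists.

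The site 38.5 kb upstream was absent from LSK, IgG and DN1 replicate 2, and had percentiles of 47.2 in the other DN1 library, 76.2 and 54.4 in DN2a, and 55.9 and 66.8 in DN2b. A further site 28.1 kb upstream had 7.76 in DN1 replicate 2, 53.1 and 35.1 in DN2a, 71.8 and 78 in DN2b, and no peak elsewhere. All 4 DN2 libraries lay above the single DN1 library that held it. With equal lists, each of these upstream sites was left in 3 DN2 libraries and no other. A site at 60.3 kb, in an intron of the neighbouring gene Colca2, was instead highest in DN1. Its percentile was 18.2, 8.12 and 24.1 in LSK, 84.1 and 80.6 in DN1, 67.3 and 72.1 in DN2a, 28.2 and 63.2 in DN2b, and 0, 5.38 and 0 in IgG.

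The central 150 bp of the DHS 36.2 kb upstream (chr9:51177458-51177607, plus strand, GRCm38) is shown as a Pou2af1 site that every Delta1 library had and no LSK or IgG library had. Capitals mark the 2 matches to the RUNX letters TGTGGT, both on the reverse strand.
Pou2af1 -36.2 kb DHS: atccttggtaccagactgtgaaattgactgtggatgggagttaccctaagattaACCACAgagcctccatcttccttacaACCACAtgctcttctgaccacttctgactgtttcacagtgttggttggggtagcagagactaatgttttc

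Ebf1 (ENSMUSG00000057098.14, chr11:44617317-45008091, plus strand), the longest of the 8 genes, had a promoter that was open before and during T lineage culture. Its promoter percentile was 48.6, 49.3 and 50.8 in LSK, 55.2 and 33.1 in DN1, 43.5 and 32.6 in DN2a, 59 and 65.9 in DN2b, and 0, 0 and 29.5 in IgG. The LSK values lay within the range of the Delta1 values, and each IgG value lay below all others. Group means were 49.5 ± 1.11 in LSK and 9.84 ± 17 in IgG (SD, n = 3 each). Across the 5 groups the adjusted p was 0.0817 (eta squared 0.816, exact permutation).

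The mean Ebf1 promoter percentile of the Delta1 libraries differed from that of LSK by -1.3. No promoter of 13606 passed in that comparison (0%), while 2471 had an unadjusted p below 0.05. Against IgG the Delta1 libraries were higher by 38.4 (adjusted p 0.0309, exact permutation over 84 divisions), and Ebf1 was 1 of the 5 B lineage promoters tested to pass, where 38.5% of all tested promoters did. Leaving out DN1 replicate 1, DN2a replicate 1 or any IgG library ended this call (adjusted p up to 0.0886), and without an IgG library 0% of all promoters passed. It was also lost at equal list lengths, where Ebf1 promoter percentiles were 15.9, 16 and 6.77 in LSK, 0 and 0 in DN1, 0 and 0 in DN2a, 23.6 and 0 in DN2b, and 0, 0 and 19.8 in IgG. The promoter DHS proper was centred 85 bp upstream of the gene start and was present in 10 libraries, and a second one at 0.355 kb was present in 1.

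Distal Ebf1 sites were more numerous in LSK and Delta1 libraries than in IgG. Their number was 6, 9 and 10 in LSK, 13 and 11 in DN1, 9 and 9 in DN2a, 9 and 17 in DN2b, and 1, 1 and 0 in IgG. The LSK and Delta1 values overlapped and IgG stood below both. Group differed by exact permutation (eta squared 0.85, adjusted p 0.0474), but leaving out any library other than the 2 of DN2b ended the call, with adjusted p up to 0.183, in fits where 0% to 5.52% of all genes passed. At equal list lengths the numbers were 3, 2 and 3 in LSK, 2 and 1 in DN1, 3 and 3 in DN2a, 3 and 2 in DN2b, and 1, 1 and 0 in IgG (adjusted p 0.0856).

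Within the Ebf1 gene body, introns held sites with opposite distributions. At 280.2 kb from the start a DHS was present in the 3 LSK libraries alone, at 56.8, 31.6 and 70.6, and 2 of these peaks remained at equal list lengths. At 283.9 kb a DHS was present in the 6 Delta1 libraries alone, at 31.5 and 35.7 in DN1, 47.4 and 48.6 in DN2a, and 23 and 54.7 in DN2b, and 1 of these peaks remained with equal lists (9.99, DN2a replicate 2). At 332.0 kb another was confined to the Delta1 libraries, at 22.7 and 16.9 in DN1, 53.1 and 46.5 in DN2a, and 65.6 and 87.8 in DN2b. All 4 DN2 values at 332.0 kb lay above both DN1 values, and at equal list lengths the DHS was left in the 4 DN2 libraries alone. The strongest intron site, at 264.1 kb, was common to both stages, at 33.1, 62.1 and 37.2 in LSK, 77.8 and 67.2 in DN1, 67.3 and 66.5 in DN2a, 71.8 and 89.6 in DN2b, and absent from IgG. All 6 Delta1 values there lay above the 3 LSK values, but not with equal lists, where LSK was at 0, 37.2 and 0, DN1 at 35.2 and 30.8, DN2a at 32.1 and 41.4, and DN2b at 47.5 and 64.9.

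The central 150 bp of the intron sites at 332.0 kb (chr11:44949258-44949407) and 280.2 kb (chr11:44897398-44897547), both on the plus strand of GRCm38, are set side by side because their libraries were opposite. Capitals mark an E box (CACCTG, the reverse of CAGGTG) and a RUNX match (TGTGGT) in the Delta1 site, and no searched string occurred in the LSK site.
Ebf1 332.0 kb DHS: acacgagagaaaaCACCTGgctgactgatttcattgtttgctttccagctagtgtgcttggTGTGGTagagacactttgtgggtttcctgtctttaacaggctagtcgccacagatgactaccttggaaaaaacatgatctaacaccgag
Ebf1 280.2 kb DHS: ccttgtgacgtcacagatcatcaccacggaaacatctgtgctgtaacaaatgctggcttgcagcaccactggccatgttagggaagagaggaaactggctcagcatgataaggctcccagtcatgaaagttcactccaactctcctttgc

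Several sites outside the Ebf1 gene body were shared by LSK and Delta1 libraries on the deposited lists. The DHS 35.8 kb upstream was at 12.6, 22.4 and 56.4 in LSK, 62 and 38.3 in DN1, 54.9 and 0 in DN2a, 50.8 and 62.2 in DN2b, and absent from IgG. A DHS 31.1 kb upstream was present in 10 libraries, IgG replicates 1 and 2 included, and with equal lists it was left in LSK replicates 1 and 3 (19.6 and 29.7) and these IgG libraries (25.9 and 20), with no Delta1 library. A DHS 6.25 kb upstream, in the non-coding gene Gm37695, was present in all LSK and Delta1 libraries and in no IgG library. A DHS at 391.0 kb, past the end of the gene, was present in all Delta1 libraries, in 2 LSK libraries and in no IgG library.

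**Figure D2:**
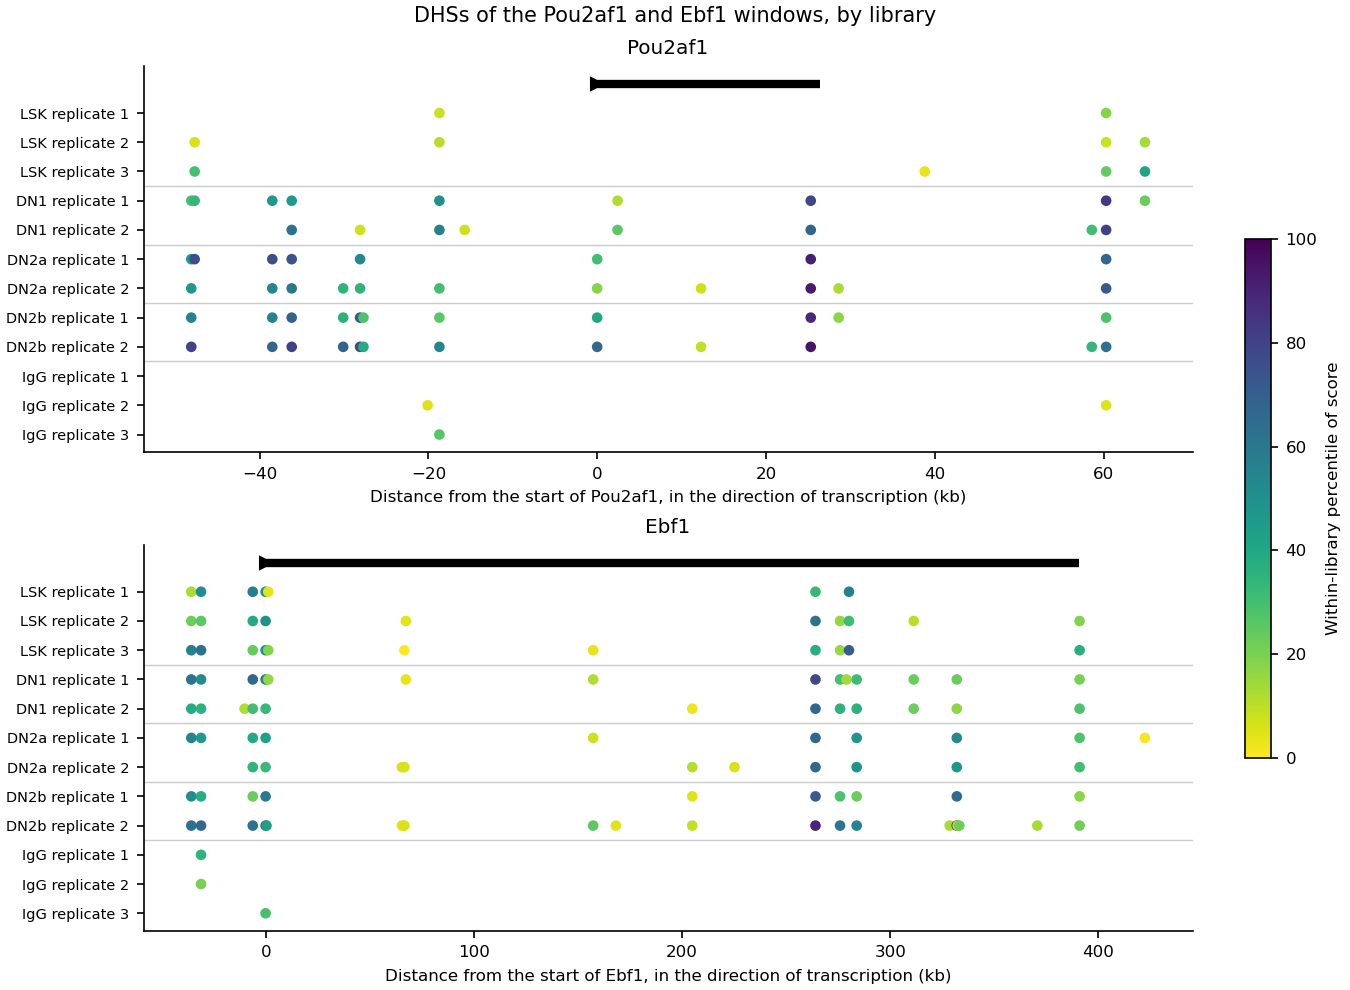
DHSs of the Pou2af1 and Ebf1 windows by distance from the gene start (kb) and by library, with shading for the within-library percentile of the peak and blank where there was none. The Pou2af1 sites at 25.3 and -36.2 kb run through the 6 Delta1 libraries and no other, and the Ebf1 intron sites at 280.2 kb and 332.0 kb are confined to LSK and to the Delta1 libraries, respectively.

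Pax5 (ENSMUSG00000014030.15, chr4:44524757-44710487, minus strand) had no peak within 1 kb of its gene start, and 1 site of the gene was open in every library. That site lay in an intron 5.93 kb inside the gene, at -546 bp from the start of another coding transcript, itself 6.48 kb inside the gene. Its percentile was 81.7, 79.9 and 81.6 in LSK, 87.1 and 79.3 in DN1, 74.5 and 72.1 in DN2a, 85.9 and 87.4 in DN2b, and 12.2, 11.4 and 21.2 in IgG. The LSK values lay within the Delta1 range, and all 3 IgG values were far below.

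With every protein-coding transcript start counted as a promoter, an alternative to the gene start, this site made the Pax5 promoter open in all 12 libraries. Group then differed (eta squared 0.99, adjusted p 0.0133, exact permutation), among 21.7% of 14477 genes that passed. The Delta1 mean was above IgG by 66.1 percentile points (adjusted p 0.0308) and differed from LSK by -0.005. The central 150 bp of this site (chr4:44704478-44704627, minus strand, GRCm38) is shown as the 1 Pax5 element shared by all libraries, and capitals mark an E box (CAGGTG).
Pax5 5.93 kb DHS: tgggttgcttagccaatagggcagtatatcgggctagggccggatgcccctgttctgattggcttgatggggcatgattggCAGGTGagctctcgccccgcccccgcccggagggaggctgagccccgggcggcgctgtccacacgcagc

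Distal Pax5 sites numbered 3, 10 and 5 in LSK, 9 and 8 in DN1, 4 and 5 in DN2a, 6 and 12 in DN2b, and 1, 1 and 1 in IgG. LSK and Delta1 overlapped, and the test across groups was not passed (adjusted p 0.151, exact permutation). Most of these were weak: at equal list lengths the number was 1 in every LSK and Delta1 library and 0, 1 and 1 in IgG. Intron sites at 145.7 kb and the site at 198.6 kb, past the end of the gene, were each present in all 9 LSK and Delta1 libraries and no IgG library, and neither remained in any library at equal list lengths. An intron site at 35.4 kb was present in both DN1 libraries (39.8 and 25), DN2a replicate 1 (25.5) and both DN2b libraries (33.3 and 62.2), and in no LSK or IgG library. The window also held the promoter of Zcchc7, whose DHSs at -45.8 and -46.1 kb were present in all 12 libraries.

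Cd79a (ENSMUSG00000003379.7, chr7:24897381-24902197, plus strand) had no promoter peak, in a window where many sites were open in every library. Distal DHSs numbered 7, 8 and 8 in LSK, 11 and 9 in DN1, 9 and 6 in DN2a, 9 and 11 in DN2b, and 6, 7 and 6 in IgG. DN1 and DN2b lay above LSK, DN2a spanned both, and the test across groups was not passed (adjusted p 0.148, exact permutation). The Delta1 and IgG values overlapped. With equal lists the numbers were 5, 7 and 6 in LSK, 8 and 7 in DN1, 7 and 6 in DN2a, 5 and 5 in DN2b, and 6, 7 and 6 in IgG, so DN2b no longer lay above LSK and each Delta1 stage overlapped with LSK or lay at its lower end. Of the 21 DHSs in its window 6 were present in all 12 libraries, and 7 of the 21 lay at the promoters of Rps19, Arhgef1 and Gm9844. A DHS at 6.88 kb in an exon of Arhgef1 and one at -46.3 kb between genes were among those present in all 12. Among the others was an intron site of Arhgef1 at 9.94 kb, with 24.2, 51.4 and 46.5 in LSK, 82.6 and 78.6 in DN1, 85 and 86 in DN2a, 88.4 and 94.6 in DN2b, and no peak in IgG. There the 6 Delta1 values all exceeded the 3 LSK values, and how many of all DHSs had such values was not counted.

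Cd79b (ENSMUSG00000040592.11, chr11:106311341-106314762, minus strand) likewise had no peak at its gene start. A peak near its second coding start, 0.233 kb inside the gene, was counted there in DN2b replicate 2 alone (42.8) when all transcript starts were used. Distal DHSs numbered 2, 4 and 3 in LSK, 5 and 3 in DN1, 5 and 5 in DN2a, 4 and 7 in DN2b, and 1, 1 and 2 in IgG. Each Delta1 library was above each IgG library, and LSK lay between and overlapped both. Across groups the adjusted p was 0.107 (eta squared 0.752, exact permutation) on the deposited lists and 0.04 at equal list lengths (eta squared 0.859), where the numbers were 2, 2 and 2 in LSK, 2 and 2 in DN1, 3 and 3 in DN2a, 4 and 3 in DN2b, and 1, 1 and 2 in IgG.

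The Cd79b window spans Smarcd2, Tcam1, Gh and Scn4a, and its strongest distal sites lay in introns of these neighbours. The site at 45.5 kb, in Smarcd2, was at 73.4, 82 and 80.2 in LSK, 89.1 and 84.2 in DN1, 87.6 and 89.6 in DN2a, 94.5 and 97.5 in DN2b, and absent from IgG. The DN2b values were the highest on these lists and with equal lists (89.8 and 91.4). All Delta1 values exceeded LSK on the deposited lists only, since with equal lists LSK replicate 2 (70.3) lay above both DN1 libraries (68.1 and 66.7). At -15.2 kb, in Scn4a, a site was at 68.9, 78.5 and 50.8 in LSK, 77.2 and 77 in DN1, 78.6 and 70 in DN2a, and 55.9 and 81 in DN2b, and was also absent from IgG. Another Scn4a site, at -11.2 kb, was present in 5 libraries.

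A pair of Cd79b window sites had opposite libraries. At -37.4 kb, in an intron of Scn4a, a DHS was present in the 6 Delta1 libraries alone, at 64.4 and 40.7 in DN1, 56.5 and 52.5 in DN2a, and 49 and 82.4 in DN2b, and it was left in the 4 DN2 libraries alone at equal list lengths. At 32.1 kb, in an intron of Tcam1, a DHS was present in the 3 IgG libraries alone, at 55.6, 17 and 26.8, and it was left in all 3 at equal list lengths. Their central 150 bp (chr11:106352098-106352247 and chr11:106282548-106282697, minus strand, GRCm38) are shown for that contrast, with capitals for RBPJ letters (TGGGAA) and RUNX letters (TGTGGT). RBPJ is the DNA-binding partner of activated Notch.
Cd79b -37.4 kb DHS: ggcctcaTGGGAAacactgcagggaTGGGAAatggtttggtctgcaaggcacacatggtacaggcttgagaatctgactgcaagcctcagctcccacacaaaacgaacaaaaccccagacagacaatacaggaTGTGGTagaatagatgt
Cd79b 32.1 kb DHS: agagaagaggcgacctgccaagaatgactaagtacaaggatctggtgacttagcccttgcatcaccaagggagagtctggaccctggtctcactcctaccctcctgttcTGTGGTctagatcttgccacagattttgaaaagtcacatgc

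Vpreb1 (ENSMUSG00000059305.12, chr16:16868403-16870843, minus strand) and Igll1 (ENSMUSG00000075370.12, chr16:16860671-16863985, minus strand) lie side by side, and their windows held the same 16 DHSs. The Vpreb1 promoter percentile was 87.9, 87.9 and 88.3 in LSK, 92.7 and 88.7 in DN1, 90.4 and 90.6 in DN2a, 85.9 and 94.3 in DN2b, and 84.6, 90.9 and 85.7 in IgG. The groups overlapped and no test was passed (adjusted p 0.662 across groups, exact permutation). The annotated Vpreb1 start is shared head to head with that of Top3b, a broadly expressed topoisomerase gene, and the DHS that was open in all 12 libraries was centred 61 bp from it, in the 5' UTR of Top3b. A second DHS at -0.279 kb was present in 4 libraries. The coding transcript of Vpreb1 starts 1.59 kb further inside, and no library had a peak within 1 kb of that start.

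The Igll1 promoter was open in DN2b replicate 2 alone, at 51. That library has the longest list, the peak was not kept at equal list lengths, and the test across groups was not passed (adjusted p 0.568, exact permutation). The 250 bases upstream of the Igll1 start (chr16:16863986-16864235, minus strand, GRCm38.p6), shown because they held more searched strings than the other upstream sequences printed here, had 4 matches in capitals. These are EBF1 letters (CCCNNGGG), a RUNX match (ACCACA, the reverse of TGTGGT) and E boxes (CAGCTG and CACCTG).
Igll1 promoter: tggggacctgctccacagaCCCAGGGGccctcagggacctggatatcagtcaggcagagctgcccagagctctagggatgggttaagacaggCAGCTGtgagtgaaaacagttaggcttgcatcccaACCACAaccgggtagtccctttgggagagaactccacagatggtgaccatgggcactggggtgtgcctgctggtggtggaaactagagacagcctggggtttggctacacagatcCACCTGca

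A pair of distal sites in the Vpreb1 and Igll1 region lay just upstream of Igll1. A DHS at -1.44 kb was present in every library, at 43.7, 65 and 62.8 in LSK, 96.8 and 98.3 in DN1, 91.2 and 91.9 in DN2a, 91.9 and 95.8 in DN2b, and 94.1, 92.2 and 87.9 in IgG. All cultured libraries, with or without Notch ligand, lay above all 3 LSK libraries, and the Delta1 and IgG ranges overlapped. The same held at equal list lengths, where LSK was at 8.02, 42.1 and 29.7, DN1 at 90.7 and 96.4, DN2a at 81.7 and 85.8, DN2b at 84.9 and 85.9, and IgG at 93.3, 92.2 and 86.2. No share of all DHSs with such non-overlap is given, so whether it is particular to this site was not tested. With a promoter window of 2.5 kb, an alternative to 1 kb in which this DHS gave the Igll1 value in each library, the test across groups was passed (eta squared 0.908, adjusted p 0.0234, exact permutation), as by 21.8% of all promoters. In that setting the Delta1 mean was 37.1 percentile points above LSK (adjusted p 0.116) and 2.95 above IgG (adjusted p 0.37).

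A second DHS, at -2.16 kb, was at 30.5 in DN1 replicate 2, 53.1 and 56.2 in DN2a, and 66.8 and 80.6 in DN2b, and was absent from LSK, DN1 replicate 1 and IgG. It was left in the 4 DN2 libraries alone at equal list lengths, so these sites less than 1 kb apart had different distributions. Downstream of Igll1, a DHS at 8.93 kb was at 0, 47 and 68.3 in LSK, 77.2 and 68.4 in DN1, 81.3 and 48.6 in DN2a, 52.6 and 79.6 in DN2b, and absent from IgG. The LSK and Delta1 values overlapped there. The central 150 bp of the pair upstream of Igll1 (chr16:16865348-16865497 and chr16:16866068-16866217, minus strand, GRCm38) follow, with capitals for a RUNX match (TGTGGT) in the one, and for GATA letters (AGATAA) and an E box (CACCTG) in the other.
Igll1 -1.44 kb DHS: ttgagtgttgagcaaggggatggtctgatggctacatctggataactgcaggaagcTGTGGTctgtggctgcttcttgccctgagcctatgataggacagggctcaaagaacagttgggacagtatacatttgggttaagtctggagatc
Igll1 -2.16 kb DHS: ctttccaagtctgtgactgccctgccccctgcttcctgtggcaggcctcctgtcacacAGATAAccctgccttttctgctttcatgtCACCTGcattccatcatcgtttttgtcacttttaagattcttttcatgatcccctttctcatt

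Distal DHSs of the Vpreb1 and Igll1 region numbered 3, 3 and 4 in LSK, 4 and 5 in DN1, 5 and 5 in DN2a, 4 and 6 in DN2b, and 2, 2 and 2 in IgG. Every IgG library lay below every other library, and LSK and Delta1 overlapped at 4. With equal lists the numbers were 2, 3 and 3 in LSK, 3 and 2 in DN1, 3 and 3 in DN2a, 4 and 5 in DN2b, and 2, 2 and 2 in IgG, so LSK replicate 1 and DN1 replicate 2 had as many as IgG. The test across groups was not passed on the deposited lists (eta squared 0.844, adjusted p 0.0632, exact permutation). A DHS at Igll1 -48.1 kb, in an intron of Ppm1f, was at 50.8, 66.4 and 67 in LSK, 79.8 and 45.2 in DN1, 51.3 and 42.3 in DN2a, 59 and 74.3 in DN2b, and 39.9, 56.9 and 0 in IgG. The LSK range overlapped with that of each other group. The remaining promoters of the window, those of Spag6l and Ppm1f, each held a DHS present in all 12 libraries.

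Blnk (ENSMUSG00000061132.13, chr19:40928927-40994535, minus strand) differed from Pou2af1 in that its promoter was open in LSK and not in DN2. Its promoter percentile was 43.7, 51.4 and 39.6 in LSK, 39.8 and 0 in DN1, 0 and 0 in DN2a, 0 and 0 in DN2b, and 39.9, 0 and 29.5 in IgG. All LSK libraries and no DN2 library had the peak, while DN1 replicate 1 exceeded the lowest LSK value. The Delta1 mean was 38.3 percentile points below LSK (unadjusted p 0.0238, adjusted p 0.177, two-sided exact permutation), and across groups the adjusted p was 0.159. With equal lists the percentile was 8.02, 19.5 and 0 in LSK, 31.6 and 19.8 in IgG replicates 1 and 3, and 0 in all Delta1 libraries.

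The Blnk window had the most distal sites in LSK and DN1. Their number was 12, 10 and 9 in LSK, 16 and 10 in DN1, 7 and 7 in DN2a, 6 and 10 in DN2b, and 4, 3 and 5 in IgG. DN2a and DN2b replicate 1 lay below all LSK libraries, whereas DN2b replicate 2 did not. Across groups the adjusted p was 0.0694 (eta squared 0.78, exact permutation). At equal list lengths the numbers were 6, 7 and 6 in LSK, 6 and 6 in DN1, 6 and 6 in DN2a, 5 and 5 in DN2b, and 4, 3 and 4 in IgG, and the test was passed (eta squared 0.909, adjusted p 0.0204).

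The strongest Blnk site, in an intron 31.4 kb inside the gene, was at 84.8, 87.9 and 86.3 in LSK, 94 and 91.5 in DN1, 86 and 78.5 in DN2a, 84.7 and 83.3 in DN2b, and 20.8, 20 and 62.8 in IgG. It was open in all 12 libraries, and the IgG values were the lowest on the deposited lists. With equal lists IgG replicate 3 (57.7) lay above DN2b replicate 2 (43.6). A site 27.9 kb upstream, between Blnk and Dntt, was at 87.9, 84 and 77.9 in LSK, 92.7 and 87.8 in DN1, 83.2 and 84.7 in DN2a, 70.9 and 91.4 in DN2b, and absent from IgG. Sites at -21.6, -22 and -44.8 kb were also present in all 9 LSK and Delta1 libraries and in no IgG library. A site at -36.7 kb, in an intron of Dntt, was present in 10 libraries. Dntt encodes terminal transferase, which adds bases at the joints of rearranged antigen receptor genes of both lymphoid lineages.

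Other Blnk window sites were likewise absent from DN2. A DHS at -37.6 kb, in an intron of Dntt, was present in the 3 LSK libraries alone, at 71.3, 47 and 67, and was left in all 3 at equal list lengths. A DHS at -4.15 kb was at 33.1, 25.6 and 29.5 in LSK, 47.2 and 45.2 in DN1, 20.8, 26.2 and 0 in IgG, and absent from DN2. Another at -4.54 kb was at 10.2, 10.5 and 0 in LSK, 75 and 55.2 in DN1, and absent from DN2 and IgG. On these lists both sites were highest in DN1. With equal lists the -4.15 kb site was left in IgG replicates 1 and 2 alone (9.88 and 26.2) and the -4.54 kb site in DN1 alone (26.9 and 5.56). A DHS at 105.4 kb was at 82.4, 60.6 and 48.9 in IgG and at 8.33 in DN1 replicate 1, and absent elsewhere. The central 150 bp of the LSK site (chr19:41032038-41032187, minus strand, GRCm38) is shown as the 1 site in these windows that every LSK library and no other held at equal list lengths, with an E box (CAGCTG) in capitals.
Blnk -37.6 kb DHS: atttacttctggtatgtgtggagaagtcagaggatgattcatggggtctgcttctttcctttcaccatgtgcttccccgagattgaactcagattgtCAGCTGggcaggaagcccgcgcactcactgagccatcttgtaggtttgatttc

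**Figure D3:**
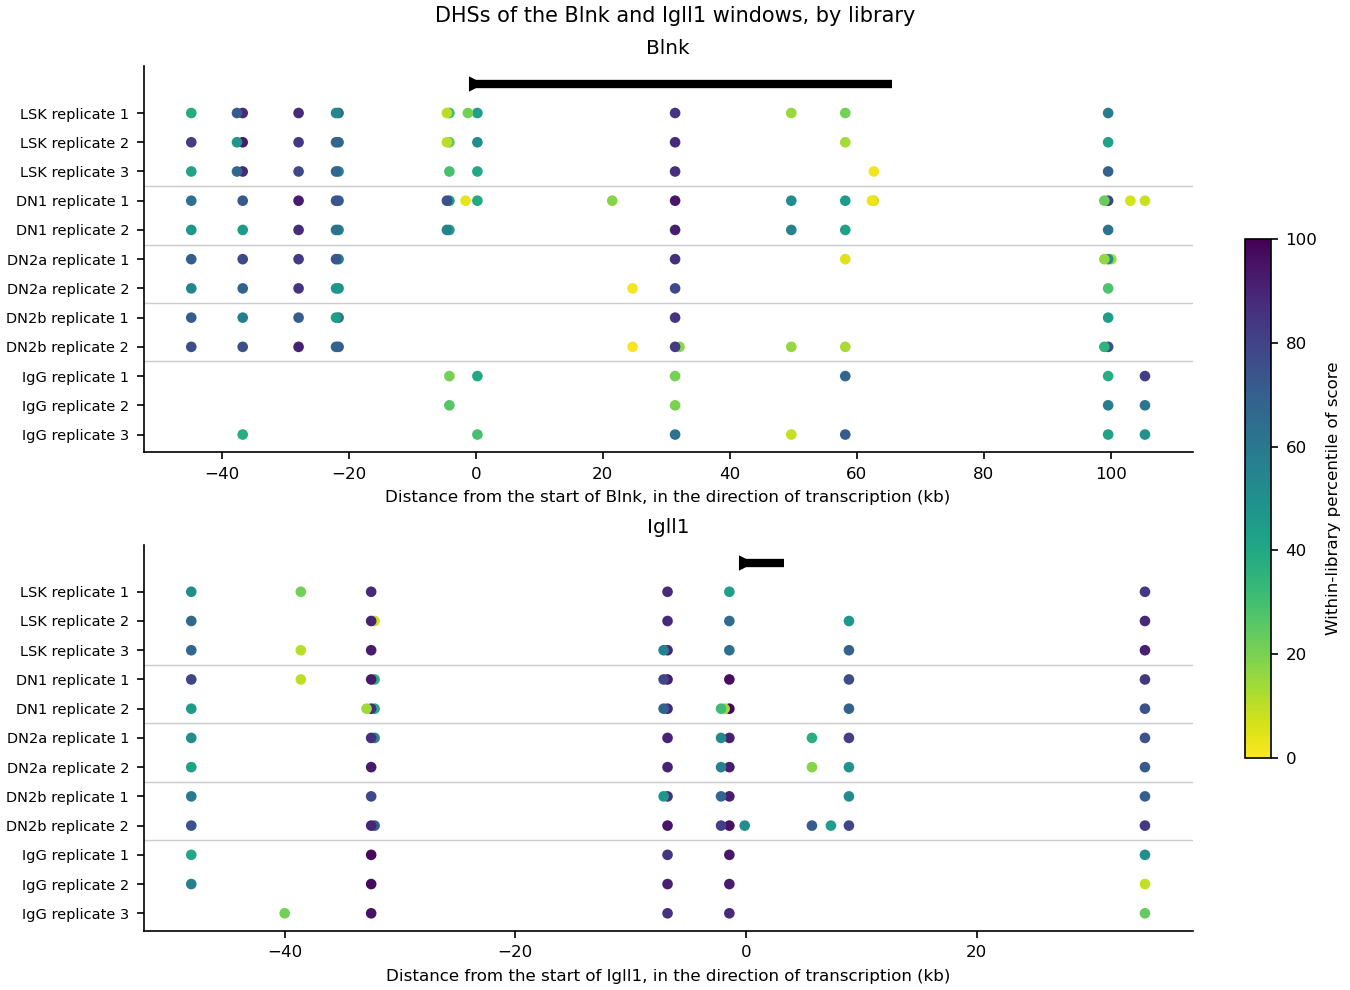
DHSs of the Blnk and Igll1 windows by distance from the gene start (kb) and by library, with shading for the within-library percentile of the peak and blank where there was none. The Blnk site at -37.6 kb is confined to LSK, its site at 31.4 kb runs through all 12 libraries, and the Igll1 site at -1.44 kb is palest in LSK (43.7 to 65) and the site at -2.16 kb is filled in DN2 and DN1 replicate 2.

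Against IgG, the mean number of distal DHSs on the deposited lists was higher in the Delta1 libraries at all 8 genes, by 10.7 at Ebf1, 6.83 at Pou2af1, 6.33 at Pax5, 5.33 at Blnk, 3.5 at Cd79b and 2.83 at Cd79a and at the shared Vpreb1 and Igll1 region. All genes but Cd79a had groups that did not overlap. With equal lists the differences shrank to 2.67 at Pou2af1, 2 at Blnk, 1.67 at Ebf1, 1.5 at Cd79b, 1.33 at Vpreb1 and Igll1, 0.333 at Pax5 and 0 at Cd79a. Such non-overlap occurred at 34.6% of 20176 genes on the deposited lists and at 8.69% of 17800 genes at equal list lengths, where Blnk was the only one of the 8 that kept it. No gene passed the adjusted threshold in this comparison (0%), by a test whose smallest p is 0.0119, while 7342 had an unadjusted p below 0.05. Across the 5 groups, 2 of the 8 genes passed on the deposited lists (Ebf1 and Pou2af1) and 3 at equal list lengths (Cd79b, Blnk and Pou2af1), against the 8.75% and 19.6% of all genes given above. Pou2af1 alone passed both.

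**Figure D4:**
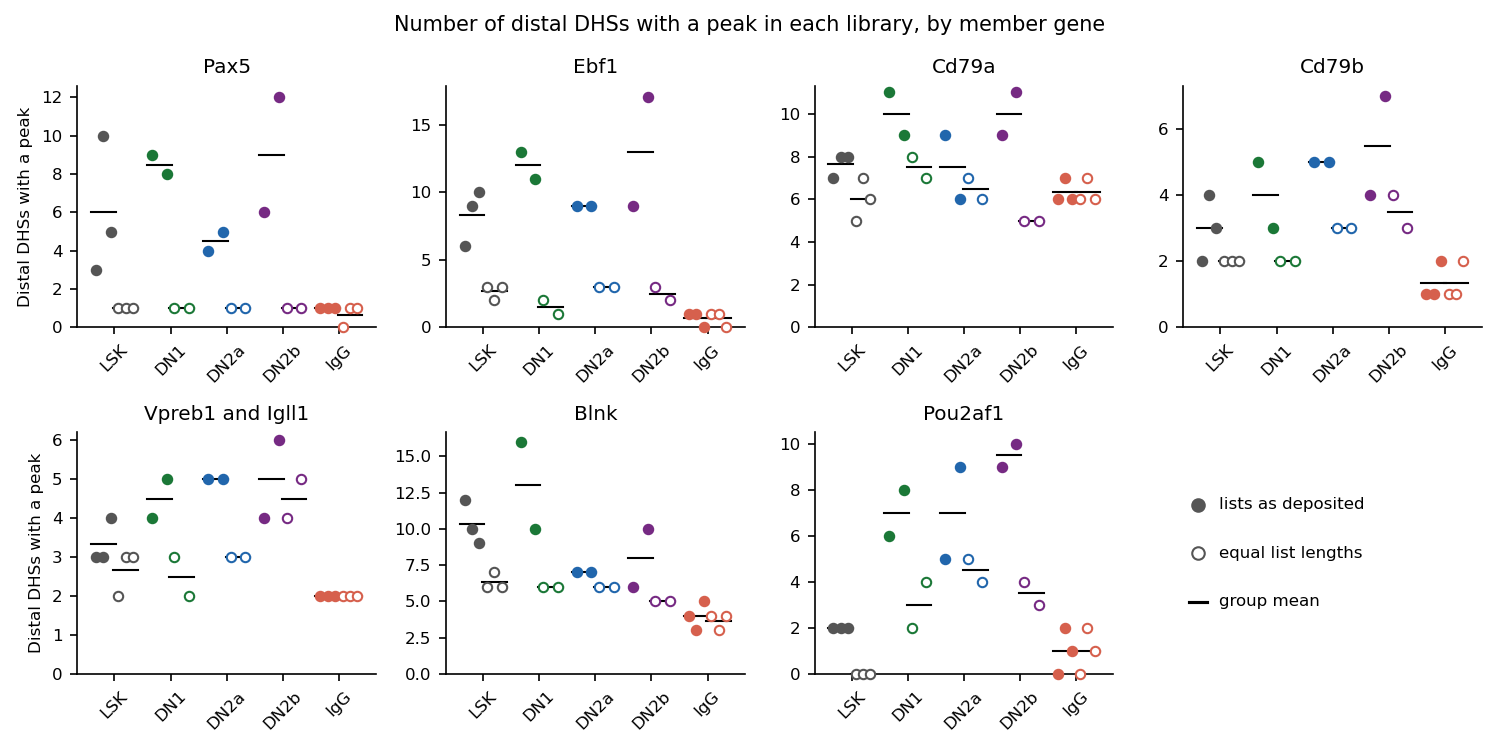
Number of distal DHSs with a peak in the window of each B lineage gene, per library and group, for the deposited lists and at equal list lengths, with 1 point per library. Pou2af1 lies at 2 in LSK against 5 to 10 in the Delta1 libraries on the deposited lists and at 0 against 2 to 5 at equal list lengths, while the other genes overlap between LSK and Delta1 on the deposited lists.

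DHSs were also counted by the libraries that had them, with no test. Of the 148 DHSs, 18 (12.2%) were present in all 12 libraries, against 7.68% of all DHSs, and most of these lay at promoters of neighbouring genes or in the Cd79a window. The Ebf1 and Pou2af1 windows held none of them. Another 5 of the 148 (3.38%) were present in all 6 Delta1 and no LSK library, against 2.14% of all DHSs. They were Ebf1 283.9 and 332.0 kb, Cd79b -37.4 kb, and Pou2af1 -36.2 and 25.3 kb, and none of them had a peak in IgG. The reverse pattern, all LSK and no Delta1, held for 2 (1.35%, against 0.847%), Ebf1 280.2 kb and Blnk -37.6 kb. The Pou2af1 promoter was the 1 DHS (0.676%, against 0.782%) present in all DN2 and no LSK or DN1 library. Leaving out a DN1 library raised this count to 3, with shares of 2.14% against 1.62% of all DHSs without DN1 replicate 1 and 2.1% against 0.947% without DN1 replicate 2. It was 2 without DN2a replicate 1 (1.37% against 1.12%), DN2a replicate 2 (1.38% against 1.51%) or DN2b replicate 1 (1.35% against 1.01%), and with the upper 50% of scores (2.74% against 1.44%), so whether its share lay above or below that of all DHSs depended on the setting.

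Patterns against IgG were the more frequent ones. DHSs in all Delta1 and no IgG library numbered 18 (12.2%, against 6.94% of all DHSs), and those in all LSK and no IgG library 15 (10.1%, against 7.87%). In the other direction, 1 DHS was in all IgG and no Delta1 library (0.676%, against 2.28%), Cd79b 32.1 kb, and 2 were in all IgG and no LSK library (1.35%, against 2.51%), that site and Blnk 105.4 kb. Shortening the lists to equal lengths left 69 of the 148 DHSs, beside 76929 of all 170207. The pattern of all Delta1 and no LSK was then left at Pou2af1 25.3 kb alone. That is 1.45% of the 69, against 2.28% of all DHSs left, so the share lay below that of all DHSs there. With the upper 50% of scores the pattern of all Delta1 and no IgG held 8 DHSs, at 11% against 9.4% of all. Of the 69, 8 were in all Delta1 and no IgG library (11.6%, against 5.01%) and 6 in all LSK and no IgG (8.7%, against 7.01%). Another 2 were in all IgG and no Delta1 (2.9%, against 7.44%), 3 in all IgG and no LSK (4.35%, against 7.25%), and 3 in all DN2 and no LSK or DN1 library (4.35%, against 2.12%). Of the 148, 45 (30.4%) were found in a single library, against 32.7% of all DHSs. DN2b replicate 2, the library with the longest list, held 15 of these 45, beside 22044 of the 55680 single-library DHSs of the whole series.

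**Figure D5:**
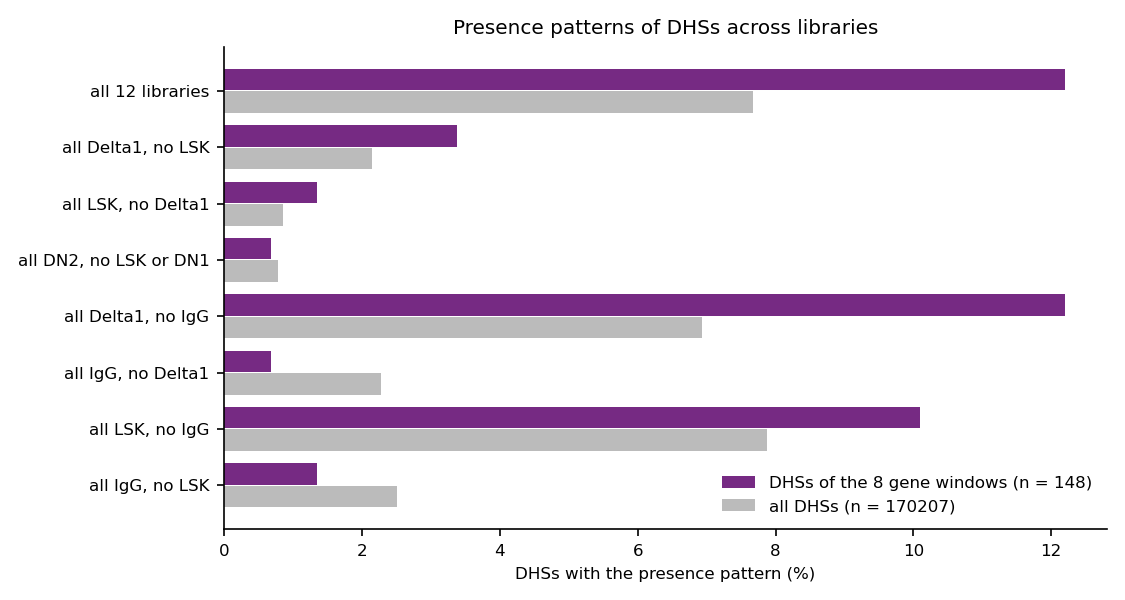
Share (percent) of the 148 DHSs of the B lineage windows, and of all 170207 DHSs, in each pattern of libraries on the deposited lists. The share in all 12 libraries is 12.2 against 7.68 and that in all Delta1 and no IgG libraries 12.2 against 6.94, while the share in all IgG and no Delta1 libraries is 0.676 against 2.28.

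Other genes of B cell development were read the same way, from lists drawn up with earlier results of these data known. Of 12 further B lineage regulators, 7 to 8 promoters were open in each LSK library, 7 to 8 in DN1, 8 in DN2a, 9 to 10 in DN2b and 6 to 7 in IgG. Of these, 10 could be tested and 1 passed across groups, Bach2, a repressor of plasma cell differentiation, with a mean percentile of 80 in LSK, 84.1 in Delta1 and 29.7 in IgG (adjusted p 0.0418, exact permutation). Of 11 tested promoters of receptor signaling and rearrangement genes 1 passed, Rag1, a subunit of the recombinase that both lymphoid lineages use. Rag1 had no peak in LSK and IgG and was at 29.4 and 53.4 in DN1, 49.3 and 66.5 in DN2a, and 67.9 and 88.9 in DN2b (adjusted p 0.0169). Of 7 tested promoters of B cell surface genes 3 passed, and these included Il7r, the receptor chain for the cytokine added to the DN2 cultures, with means of 44.7 in LSK, 91.8 in DN1, which had no IL-7, 82.2 and 80.1 in DN2a and DN2b, and 7.07 in IgG (adjusted p 0.0117). The others were Cr2, with means of 61.9, 59.8, 23, 43.3 and 0 over the 5 groups from LSK to IgG, and Cd40, with means of 14.6, 62.6, 12.7, 64.6 and 0 in that order. All of these shares stand beside the 20.2% of all promoters that passed. At equal list lengths Bach2, Rag1, Cr2 and Cd40 no longer passed (adjusted p 0.105, 0.124, 0.0573 and 0.243) and Il7r did (adjusted p 0.0427). In that setting 1 of 8 tested regulators, 1 of 9 receptor signaling and rearrangement genes and 2 of 6 surface genes passed, against 8.41% of all promoters. Calls were then gained at Spi1, which encodes PU.1, with means of 87.9, 60.9, 61.5, 40.8 and 93.6 over the 5 groups from LSK to IgG (adjusted p 0.0204), and at Cd72, with means of 63.7, 47.9, 35.5, 7.63 and 29.7 over the 5 groups from LSK to IgG (adjusted p 0.0249). Tnfrsf13c, the receptor for the survival factor BAFF, also passed there, with means of 0, 1.17, 30.6, 44.5 and 0 in that order (adjusted p 0.0204).

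Distal numbers passed at 2 of 12 regulators, Foxo1 and Ikzf1, at 3 of 14 signaling and rearrangement genes, among them Cd72 and Dntt, and at 1 of 10 surface genes, Il7r, beside 8.75% of all genes. At equal list lengths 3 of 12 regulators passed (Irf4, Ikzf3 and Ikzf1, and no longer Foxo1), 6 of 14 signaling and rearrangement genes and 4 of 9 surface genes, beside 19.6% of all genes. The Delta1 mean was above the LSK mean at the 3 regulators, at 4 of the 6 signaling and rearrangement genes and at 1 of the 4 surface genes, and below it at the others. Ikzf1, an early lymphoid factor, had on average 9 distal DHSs in LSK, 20.8 in Delta1 and 5.33 in IgG (adjusted p 0.0275, exact permutation). Dntt, whose promoter had no peak in any library and whose window overlaps that of Blnk, had on average 13, 14.5, 8.5, 9 and 4 over the 5 groups from LSK to IgG (adjusted p 0.0346).

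For the promoters open in 1 to 11 libraries, the 3 promoters with the most similar percentiles over the 12 libraries were listed as a description, among 12732 promoters open in at least 2. Those most like Pou2af1 were Ifng (r = 0.979), D630039A03Rik (0.972) and Doc2a (0.964). Ifng was open in the same 4 DN2 libraries, at 18.4, 25.3, 47 and 66.8, and had no peak elsewhere. Those most like Blnk were Mgmt (0.963), Ell2 (0.962) and Sh3d21 (0.961), and those most like Ebf1 were Sssca1 (0.975), Psmd6 (0.968) and Thoc1 (0.962), each of these last open in all 12. The likeness of Kcnb2, Cyp2e1 and Bsnd to Igll1 (0.998 to 0.999) rests on the 1 library in which Igll1 was open. List length differs between these libraries and is shared by all promoters.

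Sequence features of the 8 genes were read without a test. The observed/expected CpG ratio in 2 kb centred on the gene start was 0.627 at Vpreb1, 0.574 at Ebf1, 0.5 at Pax5, 0.326 at Cd79a, 0.315 at Pou2af1, 0.271 at Blnk, 0.169 at Cd79b and 0.158 at Igll1. The median over all genes was 0.478, and over promoters open in all 12, in 1 to 11 and in none of the libraries it was 0.653, 0.499 and 0.193. Vpreb1 and Ebf1, the promoters open in the most libraries, thus had the highest ratios, and Pax5 had a higher ratio than Pou2af1 or Blnk with no peak at its start. At Vpreb1 both the peak and the ratio are those of the start shared with Top3b, not of its coding start 1.59 kb further inside.

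The strings searched on both strands of the central 150 bp of each DHS were chosen for factors of blood development. They were CCCNNGGG for the factor EBF1, CAGGTG for the E proteins, CAGCTG likewise for E proteins, ATTTGCAT for octamer-binding proteins, and GAGGAAGT for the myeloid and lymphoid factor PU.1. The others were TGTGGT for the RUNX proteins, AGATAA for the GATA proteins and TGGGAA for the Notch partner RBPJ. EBF1 letters occurred in 4.73% of the 148 DHSs and 4.81% of all DHSs, and RUNX letters in 20.3% and 23%. RBPJ letters occurred in 17.6% and 12.8%, CAGGTG in 15.5% and 12.8%, CAGCTG in 12.2% and 11.5%, and GATA letters in 6.08% and 8.26%. PU.1 letters were found in 2.03% and 5.7%, and the octamer in 1.35% and 0.769%. The corresponding shares of the 250 bases upstream of all 32851 RefSeq starts were 11.8% for EBF1, 17.2% for CAGGTG, 13% for CAGCTG, 1.6% for the octamer, 2.44% for PU.1, 14% for RUNX, 9.99% for GATA and 21.6% for RBPJ. A match is a string of letters and says nothing of binding.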

How the data were processed

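DNase-seq libraries were made from nuclei of 12 samples in 5 groups taken from the labels. The authors aligned reads with BWA 0.7.12, handled them with SAMtools 1.2 and used hotspot2 (false discovery rate 0.05) to call the peaks of each library apart from the others. The processing notes name the build mm10, used here, and also a human build. Each deposited list gives a position and a score for every peak, all 150 bp wide. The deposited score runs up to 150 in each library and its meaning is not given in the sources used here, so it served only to rank peaks within a library. No reads or totals were used, so no counting intervals can be given and absence of a peak is not evidence of closed chromatin, least of all in a short list. Replicate numbers are names in deposition order.

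Genes were taken from GENCODE M21 (the study used another release), with the gene record's 5' end as the start, and RefSeq sequences from GRCm38.p6. Of the 8 genes, 7 had an entry in the RefSeq promoter table, and Cd79b is given without one. The share of variance between groups was tested over all 138600 divisions of the libraries and the Delta1 differences, two-sided, over 84, by exact permutation, with Benjamini-Hochberg adjustment over all genes with a peak of that kind and a threshold of 0.05. The study's read-level test was not run. Alternatives were equal list lengths, the upper 50% of scores, each library left out in turn, promoter windows of 500 bp and 2.5 kb, every protein-coding transcript start, flanks of 25 and 100 kb, and merging within 150 bp or at 50 bp of overlap. The tests were tested on simulated data.

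The text names all 8 genes, DHSs at their promoters, the 3 distal DHSs with the highest median percentile in each window, DHSs in the counted patterns, neighbouring genes whose promoters lie in a window, and the 3 most similar promoters. Further DHSs of the windows were chosen after their values were seen. These are Ebf1 -31.1 kb, Pou2af1 60.3 and -28.1 kb, Igll1 -2.16 kb, and Blnk -4.15 and -4.54 kb. The genes and lists were chosen with earlier results of these data known. One gene of these lists is not reported here by name. Python 3.11.15 with numpy 2.4.6, pandas 2.3.3, scipy 1.17.1, numba 0.67.0, pysam 0.24.0 and samtools 1.23.1 was used.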

Additional observations from a re-analysis of the deposited data

How the results depend on the processing

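List length differs 3.39-fold and follows the groups. Shares in parentheses are those over all genes or DHSs under the same setting, and the counts of B lineage genes moved with that share in part of the settings. For promoters across groups, 1 gene passed (Pou2af1, 20.2% of all), against 0 at equal list lengths (8.41%), 0 with the upper 50% of scores (22%), 2 with a 2.5 kb window (Pou2af1 and Igll1, 21.8%), 2 with every transcript start (21.7%) and 0 to 1 with a library left out (0% to 13.3%). For promoters against IgG, 1 passed (Ebf1, 38.5%), against 0 at equal list lengths (0%), 0 with the upper 50% (37.9%), 2 with every transcript start (38.7%) and 0 to 1 with a library left out (0% to 41.7%). For distal numbers across groups, 2 passed (8.75%), against 3 at equal list lengths (19.6%), 3 with the upper 50% (15.4%), 1 with flanks of 25 kb (6.14%), 1 with flanks of 100 kb (8.17%), 4 with merging within 150 bp (9.19%) and 0 to 6 with a library left out (0% to 38.9%), the 6 and the 38.9% both without DN2b replicate 1. The 6 include both Vpreb1 and Igll1, which share the same distal DHSs and so are not separate results. The pattern of all Delta1 and no LSK held 5 DHSs (3.38%, against 2.14% of all), against 1 at equal list lengths (1.45% against 2.28%), 1 with the upper 50% (1.37% against 3.31%), 3 with flanks of 25 kb (3.09% against 2.14%) and 5 to 7 with a library left out (3.36% to 5% against 2.15% to 2.91%). Its share thus turned from above to below that of all DHSs in both shortened sets. The reverse pattern held 2 DHSs (1.35% against 0.847%), against 1 at equal list lengths (1.45% against 2.98%), 0 with the upper 50% (0% against 1.12%), 1 with flanks of 25 kb (1.03% against 0.847%) and 2 to 3 with a library left out (1.34% to 2.14% against 0.852% to 1.46%). The pattern of all IgG and no Delta1 held 1 DHS, against 2 without DN1 replicate 1 (1.43% against 2.82%), 0 with the upper 50% (0% against 2.76%) and 0 with flanks of 25 kb (0% against 2.28%).

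The Delta1 minus LSK difference turned at the Ebf1 promoter (-1.3) to 9.46 with the upper 50% and ran from -4.84 to 1.81 with a library left out, at the Vpreb1 promoter to -0.558 and at distal Ebf1 sites to -0.333 at equal list lengths, and at distal Pax5 sites ran from -0.167 to 3.33 with a library left out. Against IgG, equal list lengths turned the promoter differences of Ebf1 to -2.66 and of Vpreb1 to -6.92. The cause was not tested, beyond that shorter lists hold fewer peaks. The Pou2af1 distal call held in 4 of 5 other settings (adjusted p 0.145 with flanks of 25 kb) but in 1 of 12 with a library left out, that without DN2b replicate 1. Pou2af1 and Igll1 had no promoter value at equal list lengths, nor Vpreb1 with every transcript start. No paired analysis was possible because replicate numbers follow deposition order and the labels pair no libraries.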

Other observations

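The immunoglobulin loci themselves were read after the values above were seen, as values only. The heavy chain locus Igh (chr12:113254830-116010093, mm10) held 217 DHSs, with 31, 29 and 46 of them in LSK, 119 and 85 in DN1, 92 and 62 in DN2a, 79 and 169 in DN2b, and 13, 16 and 15 in IgG. At equal list lengths the numbers were 10, 13 and 11 in LSK, 14 and 19 in DN1, 21 and 22 in DN2a, 27 and 21 in DN2b, and 11, 16 and 11 in IgG. Each Delta1 library remained above each LSK library, and DN1 overlapped with IgG. No share of other regions with such non-overlap is given, so whether it is particular to Igh was not tested. Of the 217, 4 were present in all 12 libraries, where 7.68% of all DHSs were. The one at chr12:113427437-113427646 was at percentiles from 56.4 in IgG replicate 3 to 85.9 in DN1 replicate 1 and DN2b replicate 2. The kappa light chain locus Igk (chr6:67555497-70726966) held 33 DHSs, with 4, 4 and 5 in LSK, 17 and 9 in DN1, 9 and 5 in DN2a, 6 and 25 in DN2b, and 0, 2 and 2 in IgG. With equal lists these fell to 2, 3 and 2 in LSK, 2 and 2 in DN1, 2 and 2 in DN2a, 1 and 3 in DN2b, and 0, 2 and 1 in IgG, and LSK and Delta1 overlapped. The lambda locus Igl held 3.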
